A study of Mus musculus with 6 samples.

Results

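Hox genes encode homeodomain transcription factors that give cells along the body axis and the limbs their position, and bone-forming cells of the adult skeleton keep the Hox pattern of the site they arose from. They lie in clusters named Hoxa, Hoxb, Hoxc and Hoxd. Genes in equivalent places of different clusters share a paralog number, which runs from the anterior end of a cluster to the posterior end. The members here were the genes of the expression table whose mouse symbol in the GENCODE M21 annotation was Hox, a cluster letter and a number. These were 28 of the 29616 genes of the table, out of 39 annotated Hox genes.

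RNA sequencing compared bone cells of C57BL/6 mice in 2 groups of 3 libraries, control and dexamethasone, a synthetic glucocorticoid that activates the glucocorticoid receptor. The labels give the strain in this form, and the paper lists its wild type mice as C57BL/6J. Per the paper, mice received 0.08 µg/g dexamethasone daily for 4 weeks from 8 weeks of age, and controls received saline. The sequenced cells were positive for Osteocalcin and came from bones freed of marrow. For cell sorting the paper describes femurs, and where it reports the sequencing it names only bones. The labels call the libraries biological replicates, but neither the labels nor the paper say whether a library was 1 mouse or pooled mice. The p-values therefore weigh a group difference against the spread between these libraries, which may not be the spread between mice. The values are read counts per gene divided by a size factor for each library, called normalized counts. Reads recovered from them numbered 83025489, 81186636 and 88354925 in control replicates 1, 2 and 3, then 89910728, 75526030 and 72596611 in dexamethasone replicates 1, 2 and 3. Values listed by library keep this order. SE is the standard error of a fitted log2 fold change.

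Hox transcripts were scarce in both groups and scarcer with dexamethasone. Summed over the 28 genes, control replicates 1, 2 and 3 held 4271, 4352 and 4493 normalized counts, and dexamethasone replicates 1, 2 and 3 held 2911, 2826 and 2844. The groups did not overlap, and the dexamethasone mean was 34.6% below the control mean. As a share of all reads, in parts per 1000000, this was 56.0, 54.8 and 57.9 in the controls and 33.9, 34.3 and 33.7 under dexamethasone. These sums are a description with no test. In bulk samples, fewer cells of a type and less RNA per cell cannot be told apart.

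The limma test took genes averaging 10 or more normalized counts over all 6 libraries and ran on the log2 scale after adding 1, which makes fold changes of low genes smaller. A gene was called when its p-value, adjusted by Benjamini-Hochberg over all 17442 tested genes, was under 0.05 and its log2 fold change was at least 1 in size. Of the 28 Hox genes, 17 were tested and 11 had too few reads. The 4 called genes were Hoxa7, Hoxb3, Hoxb13 and Hoxc6, and each was lower with dexamethasone. Over all tested genes, 10.6% were called lower, 11.7% higher and 22.3% in either direction. Without the fold requirement 13 of the 17 tested Hox genes were lower, against 35.2% of all tested genes, of which 37.2% were higher. In 14 of the 17, every dexamethasone library lay below every control library, against 36.4% of all tested genes. The fitted log2 fold change was below 0 for all 17 tested members, with a median of -0.70. Over all tested genes the median was 0.000712. With limma 0 Hox genes were called higher, also with edgeR and DESeq2 on recovered reads, and 0 were higher at an unadjusted p-value under 0.05 with each of these tools. Hoxa4 passed the filter with a dexamethasone mean under 10 normalized counts, so it entered the test through the control group. With the filter raised to a mean of 100, 9 Hox genes were tested and 0 were called, since all 4 called genes lie below that level.

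**Figure D1:**
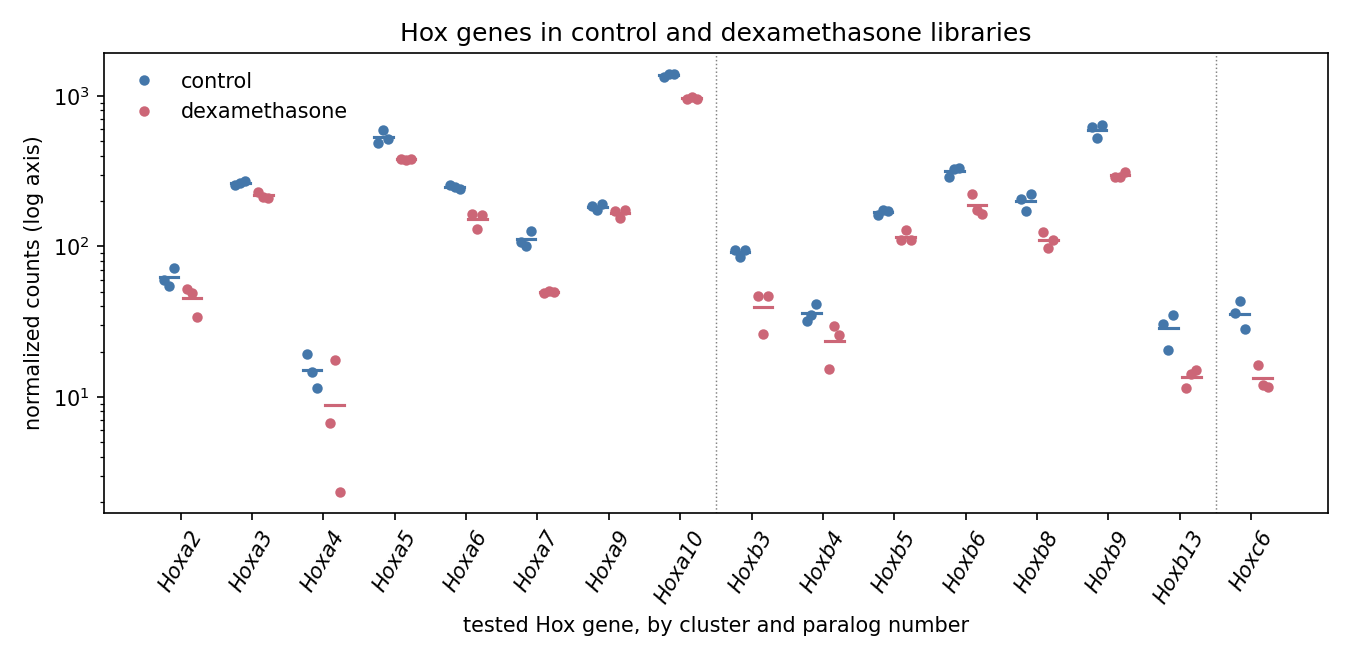
Normalized counts on a log axis for 16 of the tested Hox genes, ordered by cluster and paralog number. Points are libraries (3 control, 3 dexamethasone), bars are group means, and dotted lines separate the clusters; the groups overlap for Hoxa4 and Hoxa9.

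In the Hoxa cluster all 9 genes with a value were tested, and Hoxa11 and Hoxa13 had no row in the table and were not analysed here. Hoxa10, a posterior gene of limb and trunk skeleton patterning, had the highest level per kilobase of annotated exon of any member, at 420.3 ± 10.6 normalized counts per kilobase in control libraries (SD, n = 3) and 294 ± 5.31 with dexamethasone (SD, n = 3). Its libraries held 1335, 1399 and 1389 normalized counts in the controls and 952, 981 and 950.0 under dexamethasone. Every dexamethasone library was lower than every control library, by more than the spread within either group. The fitted log2 fold change was -0.52 (SE 0.0511, adjusted p = 2.12e-09 by limma), under the fold requirement.

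Hoxa5, a central gene known for its part in the cervical and thoracic skeleton and the lung, held 488, 592 and 516 normalized counts in the controls and 381, 377 and 381 under dexamethasone. The dexamethasone libraries were close to each other and all below the control libraries. Its log2 fold change was -0.48 (SE 0.0796, adjusted p = 8.02e-06 by limma). Per kilobase, Hoxa5 at 283 ± 28.6 and Hoxa6 at 283 ± 9.27 were next in the control libraries and differed by less than their SDs. Hoxa6 went from 247 ± 8.10 to 152 ± 18.6 normalized counts (SD, n = 3 each), a log2 fold change of -0.70 (adjusted p = 5.93e-06 by limma).

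Hoxa7, Ensembl gene ENSMUSG00000038236, was the called gene of this cluster. It held 106, 101 and 127 normalized counts in the controls and 48.6, 50.1 and 49.9996 under dexamethasone. The dexamethasone libraries hardly differed from each other. The log2 fold change was -1.15 (SE 0.168, adjusted p = 1.37e-06 by limma), and the mean was 55.5% lower. In the annotation, genes on the opposite strand overlap 20.4% of its exon bases. The strand setting of the count is not given in the sources used here, so reads of Hoxa7 and of an antisense partner cannot be told apart.

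Hoxa9, its neighbour on the posterior side, differed little. It went from 183 ± 8.35 to 167 ± 11.1 normalized counts (SD, n = 3 each), the groups overlapped, and the log2 fold change was -0.13 (SE 0.113, adjusted p = 0.306 by limma). It was -0.24 with libraries scaled to the same total, -0.05 with quantile normalization and -0.08 without dexamethasone replicate 2, with no adjusted p-value under 0.05 in any setting. A p-value over the threshold does not show that the groups were equal. Toward the anterior end, Hoxa2 and Hoxa3 act in hindbrain and neck patterning. Hoxa3 had 256, 262 and 272 normalized counts in the controls and 231, 214 and 210.5 under dexamethasone, a log2 fold change of -0.27 (adjusted p = 0.0149 by limma). Its adjusted p-value was 0.0586 by limma without control replicate 3 and under 0.05 in every other setting. Hoxa2 had a log2 fold change of -0.47 (adjusted p = 0.0504 by limma). The adjusted p-value of Hoxa2 lay under 0.05 in some alternatives and not in 9 of 16, and without dexamethasone replicate 3 the log2 fold change was -0.28 (adjusted p = 0.253 by limma). Other genes on the same strand overlap 15.0% of the exon bases of Hoxa2 and 8.01% of those of Hoxa3, and genes on the opposite strand overlap 25.4% of those of Hoxa3.

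Hoxa4 rested on few reads, 21, 15 and 13 in the controls and 7, 16 and 2 under dexamethasone. Dexamethasone replicate 2 lay among the control libraries, and the log2 fold change of -1.02 (adjusted p = 0.0702 by limma) was not called. Without dexamethasone replicate 2 it was -1.65 (adjusted p = 0.00410 by limma) and called, and with replicate number as a block it was also called. Without dexamethasone replicate 3 it was -0.41 (adjusted p = 0.419 by limma), and with a pseudocount of 5 it was -0.68. Over all settings its adjusted p-value ranged from 0.00410 to 0.419 with limma, edgeR or DESeq2. Opposite-strand genes overlap 16.0% of the exon bases of Hoxa4.

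In the Hoxb cluster 9 genes had a row and 7 were tested. In each of these the groups did not overlap and dexamethasone was lower, against 36.4% of all tested genes. All 7 were lower at a limma adjusted p-value under 0.05, against 35.2% of all tested genes. For Hoxb4 this did not hold in every setting. Hoxb1 had no row and was not analysed here. Hoxb9, which acts with its paralogs in the thoracic skeleton, was the most abundant member of the cluster per kilobase, at 232 ± 23.3 normalized counts per kilobase in control libraries and 116 ± 5.26 with dexamethasone (SD, n = 3 each). It held 621, 527 and 639.7 normalized counts in the controls and 290.0, 291 and 314 under dexamethasone. The lowest control library was well above the highest dexamethasone library. Its log2 fold change of -0.99 (SE 0.0835, adjusted p = 1.04e-10 by limma) lay just short of the fold requirement. Hoxb9 was called in 5 of its other settings, edgeR and DESeq2 on the recovered reads, libraries scaled to the same total, and without control replicate 2 or without dexamethasone replicate 3.

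Hoxb6, a central gene, was next at 162 ± 11.8 normalized counts per kilobase in control libraries (SD, n = 3). Its libraries held 291, 328 and 334 normalized counts with control treatment and 221, 175 and 165 with dexamethasone. The dexamethasone libraries were all lower, and replicate 1 of that group was the highest of them. The fitted log2 fold change was -0.77 (SE 0.111, adjusted p = 1.16e-06 by limma). Hoxb8, known also for its part in blood progenitors and spinal cord, went from 201 ± 26.4 to 110.5 ± 13.5 normalized counts (SD, n = 3 each) with a log2 fold change of -0.86 (adjusted p = 3.55e-06 by limma). Hoxb5 and Hoxb4 had log2 fold changes of -0.54 and -0.65, with limma adjusted p-values of 0.000483 and 0.0401. For Hoxb4 the adjusted p-value was not under 0.05 in 7 of 16 alternatives, among them limma with no filter (0.0751), limma without trend (0.0695) and DESeq2 (0.0881). Without dexamethasone replicate 1 its log2 fold change was -0.38 (adjusted p = 0.227 by limma).

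Both called genes of the Hoxb cluster had low levels and lie toward opposite ends. Hoxb3, Ensembl gene ENSMUSG00000048763, held 94.6, 85.1 and 94.0 normalized counts in the controls and 46.7, 26.2 and 46.5 under dexamethasone. Dexamethasone replicate 2 was the lowest. The log2 fold change was -1.22 (SE 0.213, adjusted p = 1.62e-05 by limma), and without dexamethasone replicate 2 it was -0.95 (adjusted p = 5.59e-05 by limma) and no longer called. Opposite-strand genes overlap 52.9% of its exon bases, the most of any tested member, so its count is uncertain.

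Hoxb13, Ensembl gene ENSMUSG00000049604, is the most posterior gene of the cluster, known for the tail end of the axis and the prostate. It had 33, 21 and 40 reads in the controls and 12, 13 and 13 under dexamethasone. In normalized counts these were 30.3, 20.5 and 35.2 against 11.4, 14.2 and 15.1, with no overlap. Its log2 fold change of -1.001 (SE 0.314, adjusted p = 0.00645 by limma) lay at the fold requirement itself. It lost its call in 6 alternatives, among them without control replicate 1 (-0.95), without control replicate 3 (-0.84) and without dexamethasone replicate 1 (-0.89). Its adjusted p-value with limma, edgeR or DESeq2 ranged from 0.00346 to 0.0522.

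The Hoxb genes not tested had few reads. Hoxb7 had 10, 9 and 9 reads in the controls and 2, 3 and 3 under dexamethasone, with no overlap. Hoxb2 had 5, 4 and 1 and 7, 3 and 8 reads, and the groups overlapped. Opposite-strand genes overlap 27.3% of the exon bases of Hoxb2.

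In the Hoxc cluster all 9 annotated genes had a row but Hoxc6 alone was tested. Hoxc6, Ensembl gene ENSMUSG00000001661, held 35.8, 43.1 and 28.1 normalized counts in the controls and 16.2, 12.0 and 11.6 under dexamethasone. Its highest dexamethasone library was below its lowest control library. The fitted log2 fold change of -1.35 (SE 0.298, adjusted p = 0.000272 by limma) was the lowest of the 17 tested members, and the mean was 62.8% lower. Hoxa7 and Hoxc6 were called in every setting in which they were tested.

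The second member of the Hoxc cluster by level per kilobase, Hoxc4, had 14, 10 and 9 reads in the controls and 9, 3 and 4 under dexamethasone, with overlap. Hoxc5 had 5, 5 and 9 and 3, 10 and 8 reads, also with overlap. Hoxc8, which marks the thoracic region, had 13, 2 and 10 and 2, 0 and 1 reads, and the 2 reads of control replicate 2 barely exceeded the dexamethasone libraries after scaling. Hoxc9 had 5, 5 and 4 and 2, 1 and 2 reads. Hoxc10, Hoxc11, Hoxc12 and Hoxc13 had 3 reads or fewer in every library, and a count of 0 itself allows up to 3 reads by counting error. Of these, Hoxc10 had 3, 3 and 2 reads in the controls and 0, 0 and 1 under dexamethasone, without overlap but within that limit. In the Hoxd cluster Hoxd8 had 0, 0 and 0 reads in the controls and 3, 0 and 1 under dexamethasone, also at or under that limit. Hoxd1, Hoxd3, Hoxd4, Hoxd9, Hoxd10, Hoxd11, Hoxd12 and Hoxd13 had no row and were not analysed here.

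By cluster, summed levels ranked in the order Hoxa, Hoxb, Hoxc in both groups. Hoxa genes summed to 2747, 2922 and 2886 normalized counts in the controls and to 2049, 2029.6 and 2013 under dexamethasone, a mean 28.8% lower. Hoxb genes summed to 1449.6, 1356 and 1549 in the controls and 827, 768 and 800.0 under dexamethasone, a mean 45.0% lower. Hoxc genes summed to 74.4, 74.4 and 58.0 and 32.4, 28.3 and 30.2, a mean 56.0% lower. For each of these clusters the dexamethasone libraries lay below the control libraries. Per kilobase of exon, Hoxa sums were 1138, 1209.7 and 1175 against 821, 795 and 803, and Hoxb sums were 581, 549.9 and 625 against 337, 313 and 320.3.

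The Hoxa cluster held a larger share of the Hox transcripts with dexamethasone. Hoxa genes made up 65.2% ± 1.65 of the summed Hox normalized counts in control libraries and 71.0% ± 0.739 with dexamethasone (SD, n = 3 each). Hoxb genes made up 33.2% ± 1.78 and 27.9% ± 0.638. Neither share overlapped between the groups. Of the 9 tested Hoxa genes, 5 were lower at a limma adjusted p-value under 0.05, against 35.2% of all tested genes. The median log2 fold change was -0.48 for the 9 tested Hoxa genes and -0.86 for the 7 tested Hoxb genes. These shares and medians are descriptions, since genes of a cluster are not replicates.

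**Figure D2:**
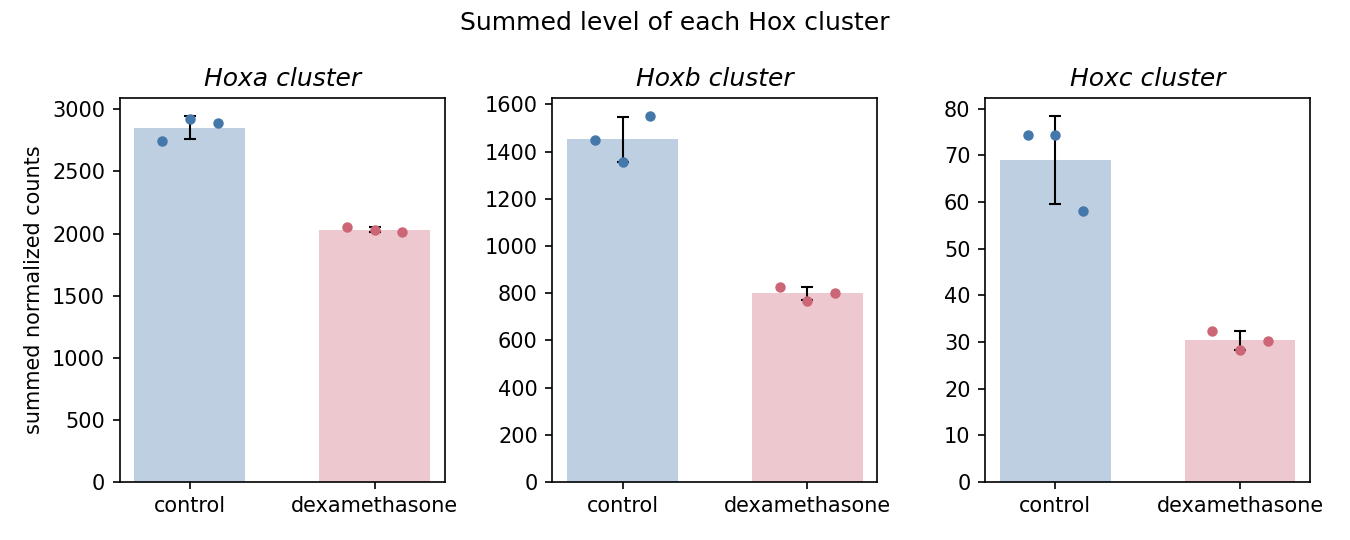
Summed normalized counts of the genes of the Hoxa, Hoxb and Hoxc clusters in the 3 control and 3 dexamethasone libraries (points), with the group mean (bar) and SD (line). In each panel the dexamethasone points lie below the control points; each panel has its own axis, starting at 0.

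By paralog number, genes were grouped as anterior (1 to 3), central (4 to 8) and posterior (9 to 13). The 4 tested anterior genes gave a median of -0.40, the 9 central genes one of -0.77 and the 4 posterior genes one of -0.75. Each class held both a called gene and a gene with an adjusted p-value over 0.05 in limma, and fold changes ranged from -1.22 to -0.27, from -1.35 to -0.48 and from -1.001 to -0.13. Posterior genes made up 50.1% ± 0.987 of the summed Hox normalized counts in control libraries and 50.5% ± 1.22 with dexamethasone, so their share differed by less than the SD. Central genes made up 38.8% ± 0.857 and 37.0% ± 0.826, a lower share with dexamethasone and no overlap. The anterior share was 11.03% ± 0.297 and 12.5% ± 0.400, with no overlap.

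**Figure D3:**
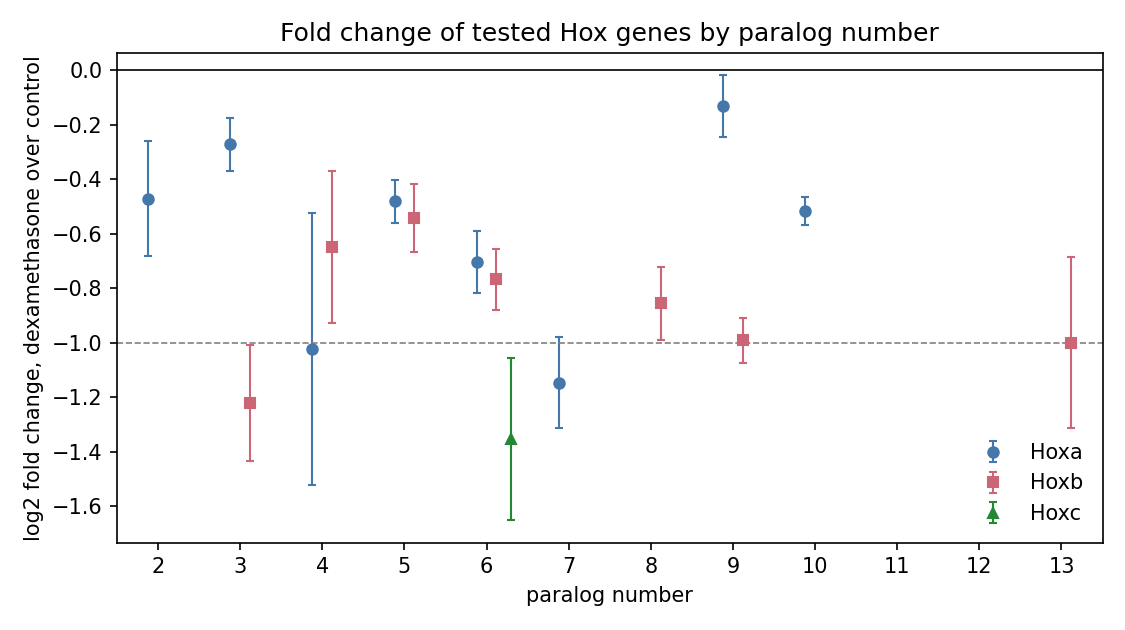
Log2 fold change of 16 of the tested Hox genes, dexamethasone over control, by paralog number, with limma standard errors as bars. Symbols give the cluster and the dashed line is the fold requirement of -1; all points lie below 0, and Hoxa9 and Hoxb9 are far apart.

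Paralogs of 1 number did not all differ alike between the groups. Ratios between them within a library do not depend on the scaling of that library. They are given as a description with no test, and an exact two-sided permutation test of 3 against 3 libraries cannot give a p-value under 0.1. The ratio of Hoxa9 to Hoxb9 was 0.297, 0.330 and 0.298 in the controls and 0.592, 0.532 and 0.559 under dexamethasone. It was higher in every dexamethasone library. The ratio of Hoxa3 to Hoxb3 was 2.71, 3.08 and 2.90 in the controls and 4.94, 8.17 and 4.53 under dexamethasone, again with no overlap. For paralog 6, Hoxc6 had few reads, 39, 44 and 32 in the controls and 17, 11 and 10 under dexamethasone. The ratio of Hoxb6 to Hoxc6 was 8.13, 7.61 and 11.9 against 13.6, 14.6 and 14.2. That of Hoxa6 to Hoxc6 was 7.13, 5.73 and 8.50 against 10.2, 10.9 and 13.8, and neither ratio overlapped between the groups. By contrast, Hoxa5 to Hoxb5 was 3.04, 3.38 and 2.99 against 3.47, 2.93 and 3.45, and Hoxa6 to Hoxb6 was 0.877, 0.752 and 0.716 against 0.746, 0.745 and 0.972, with overlap in both. The ratio of Hoxa4 to Hoxb4, which rests on the few reads of Hoxa4, also overlapped.

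Hox clusters also hold noncoding and other genes between the Hox genes, among them antisense genes. Of 46 such annotated genes, 15 had a row and 10 were tested. Of these 10, 9 had a fold change below 0, with a median of -0.48, and 5 were lower at a limma adjusted p-value under 0.05. Among all tested genes, 49.96% had a fold change below 0, 35.2% were lower at that threshold and 10.6% were called lower. The 1 called of the 10 was Gm11536, a gene of unknown function in the Hoxb cluster, with 46.8, 34.2 and 25.5 normalized counts in the controls and 10.5, 13.1 and 12.8 under dexamethasone. Its log2 fold change was -1.44 (SE 0.310, adjusted p = 0.000209 by limma). Outside the clusters, the 3 nearest protein-coding genes on each side were taken, of which 20 of 24 were tested. Their median log2 fold change was 0.19, with 11 higher and 6 lower at a limma adjusted p-value under 0.05, against 37.2% and 35.2% of all tested genes. Beside the Hoxd cluster all 5 tested flanking genes were higher at that threshold, though none was called. Beside the Hoxc cluster Calcoco1, an autophagy receptor gene, fell from 4814 ± 170.2 to 2139 ± 155 normalized counts (SD, n = 3 each), a log2 fold change of -1.17 (adjusted p = 3.25e-17 by limma). Cbx5, which encodes the heterochromatin protein HP1 alpha, rose from 19354 ± 366 to 50769.6 ± 733 normalized counts (SD, n = 3 each), a log2 fold change of 1.39 (adjusted p = 2.66e-21 by limma).

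Promoters, from 250 bases before to 50 after a gene start, were matched by symbol in a RefSeq table of build GRCm38.p6. Of the 17 tested members, 9 had an entry, with 10 promoters. CG dinucleotides numbered 4 to 29 per Hox promoter, with a median of 13.5, against a median of 7 over all 32851 promoters. Searched on both strands, TGTTCT, a half-site letter string of the glucocorticoid receptor, was in 1 of the 10 Hox promoters, that of Hoxa9, and in 19.0% of all promoters. TATAAA was in 2 and in 13.6% of all, CCAAT in 5 and in 37.4%, and GGGCGG in 4 and in 35.7%. A match is a letter string and not a site, and no match covers only this window. Shown are Hoxa7 (called, with 9 CG), Hoxa9 (closest to 0 in fold change, with 4 CG), Hoxa10 (highest level, the first of its listed promoters by position, with 21 CG) and Hoxb8 (a Hoxb gene, with 13 CG). Capitals mark matches of the first 3 strings or of their reverse complements, and Hoxa7 has none.
Hoxa7, chr6:52218524-52218823, strand -: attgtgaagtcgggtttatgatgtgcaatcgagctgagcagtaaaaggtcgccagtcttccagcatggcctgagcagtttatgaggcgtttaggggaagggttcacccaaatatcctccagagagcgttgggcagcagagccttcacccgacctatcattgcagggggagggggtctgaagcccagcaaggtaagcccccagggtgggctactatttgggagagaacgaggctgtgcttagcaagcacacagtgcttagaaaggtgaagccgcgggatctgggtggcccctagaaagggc
Hoxa9, chr6:52227321-52227620, strand -: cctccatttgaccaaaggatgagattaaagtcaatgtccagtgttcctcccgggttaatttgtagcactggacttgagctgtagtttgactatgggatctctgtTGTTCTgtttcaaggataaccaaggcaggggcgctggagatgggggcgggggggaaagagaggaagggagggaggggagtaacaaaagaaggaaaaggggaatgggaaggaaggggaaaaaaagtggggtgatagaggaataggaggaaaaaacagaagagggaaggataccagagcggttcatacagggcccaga
Hoxa10, chr6:52234890-52235189, strand -: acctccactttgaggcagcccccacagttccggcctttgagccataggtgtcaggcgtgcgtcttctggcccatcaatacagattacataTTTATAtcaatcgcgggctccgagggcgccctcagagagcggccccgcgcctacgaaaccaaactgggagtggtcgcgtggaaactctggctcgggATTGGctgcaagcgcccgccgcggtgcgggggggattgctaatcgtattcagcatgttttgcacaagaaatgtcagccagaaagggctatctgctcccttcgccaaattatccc
Hoxb8, chr11:96281655-96281954, strand +: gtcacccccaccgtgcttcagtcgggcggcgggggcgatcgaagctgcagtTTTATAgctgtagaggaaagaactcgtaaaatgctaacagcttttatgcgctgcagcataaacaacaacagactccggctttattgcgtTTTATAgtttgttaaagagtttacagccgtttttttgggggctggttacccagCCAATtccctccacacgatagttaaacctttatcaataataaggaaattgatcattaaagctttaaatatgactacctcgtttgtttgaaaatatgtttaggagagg

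Hox proteins bind DNA together with TALE homeodomain partners of the Pbx, Meis and Pknox families. All 9 of these cofactor genes were tested, 4 were higher and 3 lower at a limma adjusted p-value under 0.05, and the median log2 fold change was 0.05. Over all tested genes these shares were 37.2% and 35.2%. The called one, Meis2, was also the most abundant. It fell from 8328 ± 103 to 3775 ± 109.6 normalized counts (SD, n = 3 each), a log2 fold change of -1.14 (SE 0.0364, adjusted p = 2.92e-19 by limma). Pbx2, also among the abundant ones, had a log2 fold change of 0.05 (adjusted p = 0.309 by limma).

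Trithorax group proteins keep Hox genes active and Polycomb group proteins keep them silent. Of 17 Trithorax group and related genes, all tested, 11 were higher and 2 lower at a limma adjusted p-value under 0.05, with a median log2 fold change of 0.49. Over all tested genes, 37.2% were higher and 35.2% lower. Chd7, a chromatin remodeler, and Psip1, a partner of the Mll complex, were called higher with log2 fold changes of 1.31 (adjusted p = 1.36e-18 by limma) and 1.22 (adjusted p = 3.00e-20 by limma). Kdm6b, which removes the H3K27 methylation laid down by Polycomb, was called lower, from 5971 ± 176 to 2453 ± 84.5 normalized counts (SD, n = 3 each). The members with the highest mean were Ash1l, Kmt2a and Smarca4, with log2 fold changes of 0.06, 0.24 and 0.49 and limma adjusted p-values of 0.132, 2.70e-06 and 6.78e-11.

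Of 34 Polycomb group genes, all tested, 5 were called higher and 3 lower, 19 were higher and 12 lower at an adjusted p-value under 0.05, and the median log2 fold change was 0.16. Over all tested genes, 11.7% were called higher and 10.6% lower, and 37.2% and 35.2% were higher and lower at that limma threshold. Ezh2, the methyltransferase of Polycomb complex PRC2, rose from 2944 ± 15.7 to 13135 ± 322 normalized counts (SD, n = 3 each), a log2 fold change of 2.16 (adjusted p = 3.86e-25 by limma). Phf19, an accessory PRC2 subunit, and Phc2, a subunit of PRC1, were called higher with log2 fold changes of 2.49 and 2.02. The PRC1 chromodomain genes Cbx8 and Cbx7 were called lower with log2 fold changes of -1.501 and -1.12, as was Jarid2, a PRC2 cofactor, with -1.13. The members with the highest mean, Rbbp7, Aebp2 and Cbx6, had log2 fold changes of 0.74, 0.20 and 0.17, each with a limma adjusted p-value under 0.05. Ezh2 is also a gene of dividing cells, and the proliferation markers given further on were higher too, but a link between them was not tested.

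Retinoic acid is the best known inducer of anterior Hox genes, and its breakdown enzymes of the Cyp26 family limit it. Of 21 genes of retinoid handling and other Hox-inducing factors, 18 had a row and 15 were tested. Of these, 4 were called lower and 3 higher, against 10.6% and 11.7% of all tested genes, and the median log2 fold change was -0.28. Cyp26b1 fell from 2644, 2584 and 2643 normalized counts in the control libraries to 184, 164 and 192 under dexamethasone, a log2 fold change of -3.86 (adjusted p = 1.10e-24 by limma). Crabp2, a retinoic acid binding protein gene, had one of -2.62 (adjusted p = 5.36e-20 by limma) and Cyp26a1 one of -1.76 (adjusted p = 7.45e-08 by limma). Gmnn, known as a DNA replication inhibitor, and Rad21, a cohesin subunit gene, were called higher with log2 fold changes of 2.50 and 1.08. Zbtb16, also in the treatment list, had 0, 0 and 0 reads in the controls and 39, 42 and 39 under dexamethasone. Rxra and Ctcf had log2 fold changes of -0.28 and 0.60. Of the retinoic acid synthesis genes, Aldh1a3 had 55, 46 and 61 reads in the controls and 42, 29 and 34 under dexamethasone, a log2 fold change of -0.42 (adjusted p = 0.0861 by limma). The related Aldh1a2 and the factor gene Cdx4 had 3 reads or fewer in every library, and Cdx2, Rxrg and Crabp1 had no row and were not analysed here.

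Of 17 factors of limb position and identity, 13 had a row and 11 were tested, with 2 called lower and 1 called higher, against 10.6% and 11.7% of all tested genes. The median log2 fold change was -0.39. Irx5 and Irx3 fell, with log2 fold changes of -3.29 (adjusted p = 1.87e-26 by limma) and -2.12 (adjusted p = 5.68e-23 by limma). Tbx3 rose, with one of 1.22 (adjusted p = 1.01e-16 by limma). Gli3 and Tbx15, with Irx5 the members of highest mean, had log2 fold changes of 0.06 and -0.08 and adjusted p-values over 0.05. The hindlimb genes Pitx1 and Tbx4 were near absent, Pitx1 with 4, 2 and 1 reads in the controls and 0, 3 and 3 under dexamethasone, and Tbx4 with 2, 8 and 3 and 3, 1 and 3. Tbx5, Isl1, Hand2 and Shh had no row and were not analysed here.

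Genes known to respond to glucocorticoids were used to check the treatment labels. Of 9 such genes, all 9 were higher at a limma adjusted p-value under 0.05 and 8 were called, against 37.2% and 11.7% of all tested genes. Zbtb16, with 0 reads in every control library, entered the test through the dexamethasone group. Fkbp5 had 1829, 1897 and 1837 normalized counts in the controls and 42453, 37715 and 38298 under dexamethasone. Sgk1, the most abundant, and Mt1 had log2 fold changes of 4.25 and 2.19. The list summed to 29194, 30940.3 and 28972 in the controls and 201868, 190897 and 192170.0 under dexamethasone.

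Genes that mark bone-forming cells and other cell types moved between the same groups as the Hox genes, and their part in the lower Hox levels was not tested. Osteocalcin itself, Bglap, used to pick the cells, had 98.2, 102 and 122 normalized counts in the controls and 9.54, 12.0 and 15.1 under dexamethasone. Its transcripts were few, and it shares most of its sequence with Bglap2. Of 11 osteoblast markers, all tested, 8 were called lower and 2 higher, against 10.6% and 11.7% of all tested genes, with a median log2 fold change of -1.75. Of the bone collagen genes, the most abundant member Col1a2 had -1.05 and Col1a1 -1.88, Alpl had one of -2.45 and Bglap2 one of -3.33. Spp1 and Dmp1, the latter a marker of osteocytes, rose, with log2 fold changes of 5.25 and 7.16. The list summed to 2009100.0, 2116500.0 and 2137790.0 in the controls and 2142750.0, 2010800.0 and 2058780.0 under dexamethasone, where the rise of Spp1 stands against the fall of the collagen genes.

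Dividing cells are known by their own genes. All 10 proliferation markers were called higher, against 11.7% of all tested genes, with a median log2 fold change of 2.58. Mki67, the most abundant, Top2a, Mcm6 and Aurkb had log2 fold changes of 2.74, 2.72, 2.66 and 3.02. The list summed to 46333, 47548 and 49537 in the controls and 298144, 290087 and 284356 under dexamethasone.

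In these lists too, the shares over all tested genes were 11.7% called higher and 10.6% called lower. Of 9 chondrocyte markers, 4 were tested. Sox9, the most abundant, and Col2a1 were called higher with log2 fold changes of 1.92 and 1.90, Hapln1 was called lower with -1.42, and Col11a2 had -0.67. Col9a1 had 3 reads or fewer in every library and Acan had 2, 4 and 0 reads in the controls and 1, 6 and 1 under dexamethasone. Matn3 had 8, 12 and 12 and 0, 2 and 3 reads, and Col9a2 had 10, 6 and 4 and 3, 2 and 1. Both were lower with dexamethasone and without overlap, while the groups overlapped for Col9a1, Acan and Cnmd. This list summed to 7078, 7505 and 7518 in the controls and 25548, 23008 and 22728 under dexamethasone. Of 9 tendon and fibroblast markers, 7 had a row and 5 were tested. Scx, a tendon factor, was called lower with a log2 fold change of -2.99, and Pdgfra and the most abundant member Cd34 were called higher with 1.58 and 1.04. Mkx had one of 0.44, Dpp4 had 3 reads or fewer in every library, and Tnmd and Thbs4 had no row and were not analysed here. These markers summed to 8465, 9150.0 and 9055 in the controls and 18266, 17086 and 17818 under dexamethasone.

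Of 9 smooth muscle and pericyte markers, 8 were tested and 3 were called lower, against 10.6% of all tested genes. Acta2, by far the most abundant in the controls, Notch3 and Mcam had log2 fold changes of -3.54, -1.27 and -1.08, and Cspg4 had 0.43. Under dexamethasone Acta2 averaged 12449 normalized counts and Cspg4 averaged 10185. The smooth muscle list summed to 150951, 158888 and 156681 in the controls and 25068, 23508 and 24560.3 under dexamethasone. Des belongs to this list and to the skeletal muscle list. Of 10 skeletal muscle markers, 8 had a row and 4 were tested, of which Acta1 was called lower with -1.56. It entered the test through the control group, with a dexamethasone mean of 9.28 normalized counts. Des, the most abundant, had a log2 fold change of 0.17 and Mylpf one of 0.33. Myf5, Pax7 and Myh4 had 3 reads or fewer in every library, and Myod1 and Myh1 had no row and were not analysed here. The skeletal muscle list summed to 692, 679 and 606 in the controls and 757, 693 and 726 under dexamethasone.

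Of 17 hematopoietic markers, 16 had a row and 8 were tested, with 2 called higher and 3 lower, against 11.7% and 10.6% of all tested genes. Cd53 and Itgb2 had log2 fold changes of 4.11 and 3.20. Coro1a, Laptm5 and Lyz2, the most abundant member in the controls, had -1.77, -1.49 and -1.502. Under dexamethasone S100a9 and Itgb2 had higher means than Lyz2. Coro1a and Laptm5 had dexamethasone means of 6.79 and 6.41 normalized counts, so they entered the test through the control group. S100a9 had a log2 fold change of 0.09. Ptprc, which defines blood cells, had 3, 3 and 2 reads in the controls and 3, 5 and 5 under dexamethasone, Hba-a1 and Kit had 3 reads or fewer in every library, and Cd3e had no row and was not analysed here. The hematopoietic list summed to 1849, 1852 and 1838 in the controls and 2009.9, 1961 and 2167 under dexamethasone. Of 10 endothelial markers, 9 had a row and 6 were tested. Esam alone was called, higher with a log2 fold change of 1.20, and Vwf, the most abundant, and Kdr had 0.76 and 0.25. Pecam1 had one of 0.74 (adjusted p = 0.0419 by limma) and Egfl7 one of 0.12 (adjusted p = 0.802 by limma). Tek had one of -0.75 (adjusted p = 0.146 by limma), and its groups overlapped. It entered the test through the control group, with a dexamethasone mean of 8.11 normalized counts. Cdh5 and Tie1, which define endothelial cells, had 3 reads or fewer in every library, and Emcn had no row and was not analysed here. The endothelial list summed to 2192, 2319 and 2187 in the controls and 3911, 3304 and 3581 under dexamethasone. Of 7 adipocyte markers, Fabp4 and Pparg were tested. Fabp4 had 3, 2 and 2 reads in the controls and 1481, 1293 and 1308 under dexamethasone, where it was the most abundant. Fabp4 therefore entered the test through the dexamethasone group. Pparg, the most abundant in the controls, had a log2 fold change of 0.00. Lep and Cidec had 3 reads or fewer in every library, and Adipoq had 9, 3 and 1 and 2, 1 and 1 reads. The adipocyte list summed to 30.3, 30.3 and 38.7 in the controls and 1441, 1437 and 1545 under dexamethasone.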

How the data were processed

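The authors used STAR 2.7.10a to align reads of stranded mRNA libraries and to count them by gene, and scaled counts by a DESeq2 1.36.0 size factor per library. The deposited values are this signal per gene, here called normalized counts. The submitters' processing notes name build GRCm39, and the annotation release and strand setting are not given in the sources used here. GENCODE M21, which is on another build, gave symbols for 28087 genes, exon lengths, overlaps and neighbours only. Dexamethasone columns were matched to samples by group and number. Dividing each value by the value of 1 read in its library gave whole reads for 100% of values, within 0.001. The chi-square between replicates was 3.52 to 29.6 per degree of freedom, above the 1 of pure read sampling. Log2(normalized count + 1) was compared with limma 3.58.1 (lmFit, eBayes with trend) in R 4.3.3. This fit takes part of the spread of each gene from all tested genes. Alternatives used other pseudocounts, filters and scalings, limma without trend, a replicate block, each library left out, and edgeR 4.0.16 and DESeq2 1.42.0 on recovered reads. The fits were also run on simulated counts, where limma called 185 of 187 tested genes that had been changed. The simulation used the same spread for all genes and changed far fewer genes than the 12645 with an adjusted p-value under 0.05 by limma here. It is a check of the code and does not show how the fits behave on data like these.

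The members and gene lists were chosen with earlier results of these data known. Named were members, with values in every library for called members and the 2 of highest mean per kilobase in each cluster, up to 3 members of highest mean and 3 called in each direction of each list, and called neighbours. Other named genes, the paralog ratios and the promoters were chosen after their values were seen.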

Additional observations from a re-analysis of the deposited data

How the results depend on the processing

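Under 17 alternatives, each of the 281 fold changes of the 17 tested Hox genes stayed below 0. Of these values, 267 kept their call or lack of one, 7 lost the call (Hoxb13 in 6 settings, Hoxb3 in 1) and 7 gained one (Hoxb9 in 5, Hoxa4 in 2). With no filter all 28 Hox genes were tested, 2 more were called lower, Hoxb7 (adjusted p = 0.0315 by limma) and Hoxc8 (adjusted p = 0.0145 by limma), and 4 of the added genes had a fold change above 0, none with an adjusted p-value under 0.05. The 4 called Hox genes became 3 to 6 in the other settings, with 3 to 5 when a library was left out, except at a mean of at least 100, where 0 of 9 tested were called and 8 had an adjusted p-value under 0.05 with limma, against 13 of 17. That filter removes the 4 called genes, whose means are lower, and at an unadjusted p-value 0 of the 9 passed with the fold requirement. It also took the 3894 called genes to 2170, since fewer genes were tested.

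Scaling to the same total moved the median of all genes by -0.11, and medians there carry that shift: -0.82 for the tested Hox genes (-0.70 before), -0.59 for Hoxa (-0.48), -0.97 for Hoxb (-0.86), -0.51 for anterior (-0.40), -0.88 for central (-0.77) and -0.87 for posterior genes (-0.75). The ratio of summed levels, dexamethasone over control, went from 0.654 to 0.604 for the Hox genes, from 0.712 to 0.658 for Hoxa and from 0.550 to 0.508 for Hoxb. Quantile normalization gave medians of -0.64 for all tested Hox genes, -0.28 for anterior and -0.71 for central genes. A mean of at least 100 gave -0.54, -0.27 (1 gene), -0.70 and -0.52 for all tested Hox genes and for the anterior, central and posterior classes. No filter gave -0.80 for central and -0.96 for posterior genes, and a pseudocount of 5 gave -0.69 for central genes. With 1 library left out, medians ranged over -0.76 to -0.68 for all tested Hox genes, -0.54 to -0.41 for Hoxa, -0.96 to -0.77 for Hoxb, -0.54 to -0.30 for anterior, -0.89 to -0.73 for central and -0.79 to -0.67 for posterior genes. Beyond the filters and the scaling shift, the cause was not tested.

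Deviations of same-numbered libraries correlated at -0.0999, -0.105 and -0.0199, so no sign of pairing by replicate number was seen. With 3 libraries in each group these correlations cannot exclude a pairing. With the replicate block 3897 genes and 5 Hox genes were called, Hoxa4 among them, and 15 Hox genes had an adjusted p-value under 0.05. Limma without trend called 4 Hox genes and gave 12 an adjusted p-value under 0.05. Its adjusted p-value was larger than in the main fit for Hoxb9 (0.000244) and smaller for Hoxa3 (0.00512). Depth limits the 11 untested members, where counts of up to 3 reads could not be told from 0.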

Other observations

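Some genes in and beside the Hox clusters had reads too few for the test, and they are named here after their values were seen. Hotair, a noncoding RNA gene of the Hoxc cluster, had 19, 18 and 14 reads in the controls and 0, 2 and 2 under dexamethasone. Gm53, in the Hoxb cluster, had 5, 9 and 7 and 0, 2 and 3 reads. Ttll6, a tubulin glutamylase gene beside the Hoxb cluster, had 13, 13 and 13 and 0, 3 and 3 reads. In each of these the groups did not overlap, with dexamethasone lower, as was the case for 36.4% of all tested genes. Others did not share this direction. Gm29430, in the Hoxa cluster, had 8, 3 and 14 and 8, 7 and 10 reads, with overlap, and Mir10a, in the Hoxb cluster, had 2, 0 and 2 and 3, 2 and 4 reads, higher with dexamethasone and without overlap after scaling. Mir196a-1 had 0, 1 and 1 and 0, 1 and 0 reads, with overlap. Counts of up to 3 reads could not be told from 0, and an mRNA library does not measure mature microRNA.

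Of the tested noncoding genes, Hoxb5os, antisense to Hoxb5, went from 120.2 ± 6.30 to 62.5 ± 9.69 normalized counts (SD, n = 3 each), a log2 fold change of -0.94 (adjusted p = 1.38e-05 by limma). Hoxd3os1, in the Hoxd cluster, went from 31.9 ± 5.93 to 16.4 ± 6.86 normalized counts (SD, n = 3 each), a log2 fold change of -0.99 (adjusted p = 0.00859 by limma), although the Hoxd genes themselves had 3 reads or fewer or no row. Hotairm1, in the Hoxa cluster, had 21.1, 24.5 and 21.1 normalized counts in the controls and 17.2, 8.72 and 12.8 under dexamethasone, a log2 fold change of -0.78 (adjusted p = 0.0405 by limma).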
